A study of Mus musculus
Mus spretus with 18 samples.

Results

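The genes of potassium, sodium and chloride channels were followed through RNA-seq libraries of F1 hybrid mice. Members were chosen by symbol alone: every gene whose symbol begins with Kcn and a letter, Scn and a digit, Hcn with a digit from 1 to 4, or Clcn with a digit or k. The rule found 122 of the 38924 genes in the expression table, under 121 symbols because Kcnb2 is listed with 2 identifiers. It also found 396 of the 125200 skipped exon (SE) events, in 76 genes, and 6 of the 2243 retained introns listed for fibroblasts. Of these events, 372 in 75 genes had at least 20 junction reads in both replicates of some group.

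The hybrids had a C57BL/6J mother and a SPRET/EiJ father, the first from a common laboratory line of Mus musculus and the second from an inbred line of Mus spretus. Cerebral cortex, heart, kidney, lung, spleen and liver were taken from 2 female animals aged 8 weeks, with no treatment, and the liver libraries were made for an earlier study of the same animals. Embryonic stem cells (ESC) of the same cross are 2 independent clones, and the strain names in the liver labels (C57BL/7J and C57BL/8J) differ from the others. Fibroblasts derived from F1 hybrids, in 2 replicates each, were kept for 4 h either with 0.1 µM pladienolide B, an inhibitor of the splicing factor SF3B, or with its solvent DMSO. Nothing in the labels says that the fibroblast replicates were separate cultures, so p-values between them measure only the spread between these libraries. In the test of exons after pladienolide B that spread was shared over events of like depth, with no weight on an exon's own replicates.

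Voltage-gated sodium channels (Scn genes) open on depolarisation and start the action potential, with small beta subunits that set their gating and place in the membrane. Potassium channels bring the membrane back to rest: voltage-gated alpha subunits form tetramers, inward rectifiers and tandem-pore channels hold the resting potential, and others open on calcium or sodium inside the cell. HCN channels carry the pacemaker current of heart and brain, and CLC proteins are either chloride channels of the cell surface or chloride-proton exchangers of endosomes and lysosomes. In the kidney the inward rectifiers and chloride channels recycle potassium and move chloride across the tubule. Many of these genes also make several proteins by alternative splicing.

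Junction reads per library, summed over all SE events, ranged from 46558287 in cortex to 129496306 in liver among the tissues and from 129067054 to 151755602 in fibroblasts. Those on channel events ranged from 7042 in liver to 287374 in cortex. TPM, a level scaled to transcript length and to the library, hold no depth. Marker genes mostly followed the labels. Among the exceptions, hepatocyte markers summed to 1423 and 1224 TPM in cortex, where 3 of the 4 were below 1 TPM. Erythroid markers summed to 509 and 1581 TPM in the spleen libraries and to 970 and 663 TPM in lung. Cardiac muscle markers in lung are given below. Beside these, 2 libraries or pairs stood apart. Kidney replicate 2 held genes of the adrenal gland: the 8 listed genes of the adrenal cortex summed to 3133 TPM there and to 13.2 TPM in kidney replicate 1, with Cyp11b1 at 423 against 0.0102 TPM, and 3 genes of the adrenal medulla to 38.2 and 0.171 TPM. All 11 were at 1 TPM or more in kidney replicate 2, and the list was chosen after the data were seen. The 2 ESC clones differed by at least 2-fold in 18 of the 45 channel genes (40.0%) with a mean of at least 1 TPM, against 19.8% of all genes at that level. The same comparison gave 2 of 56 channel genes in kidney, 1 of 15 in liver and 0 in each other tissue.

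The channel genes were most widely and most highly expressed in cerebral cortex. There 102 of the 122 (83.6%) had at least 1 TPM in both libraries, against 43.4% of all genes, and their levels summed to 5339 and 5680 TPM. In liver 13 (10.7%) did, against 31.4% of all genes, with sums of 119.6 and 125.2 TPM. Heart (1680 and 1617 TPM), kidney (2219 and 2201 TPM), lung (902.1 and 854.0 TPM), spleen (506.8 and 482.2 TPM) and ESC (404.4 and 485.9 TPM) lay between, and the replicates of neighbouring tissues in this order did not overlap except for spleen and ESC. The highest mean level was in cortex for 73 genes, in heart for 18, in lung for 12, in kidney for 8, in ESC for 7, in spleen for 4 and in liver for none. In bulk tissue, fewer cells of a type and less RNA per cell cannot be told apart.

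**Figure D1:**
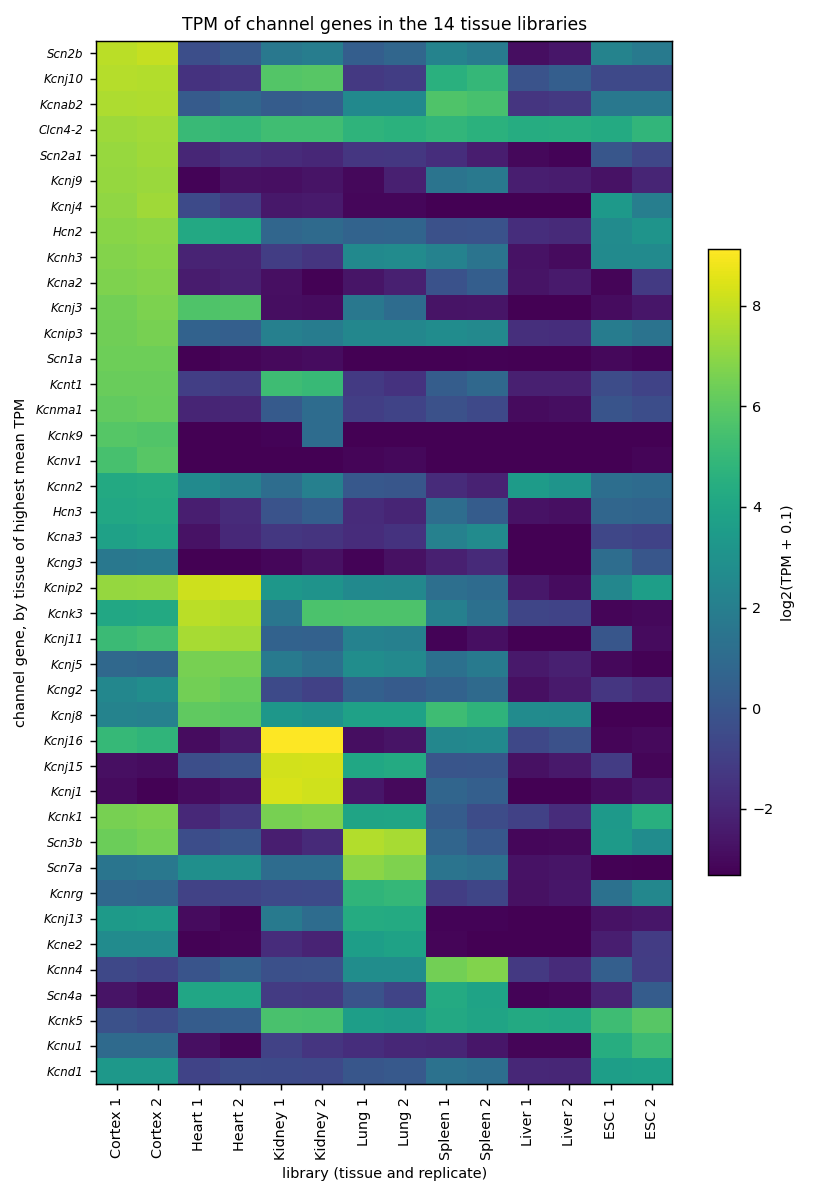
Level of named channel genes in each of the 14 tissue libraries, in log2(TPM + 0.1), with genes grouped by the tissue of their highest mean. Most genes are brightest in cortex, and separate blocks are brightest in heart, kidney and lung.

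Each tissue was then compared with the mean of the other 6, by limma on log2(TPM + 0.1), and a gene was called at an adjusted p under 0.05 and a difference of at least 2-fold. A gene needed at least 1 TPM in 2 of the 14 libraries, which 116 of the 122 met. A gene that met it through 1 tissue alone had to differ there. The 6 that did not (Kcnk16, Scn11a, Kcnh8, Kcnk18, Kcna10 and Kcnmb3) had no tissue mean above 1 TPM except Kcnh8, at 1.09 and 0.917 TPM in cortex. Where most of the other libraries lie near 0, the size of a difference is set largely by the added 0.1 TPM. Dividing each library by its median gene moved the differences of all genes by a constant, -0.89 for cortex, 0.66 for heart, -0.16 for kidney, -0.55 for lung, -0.49 for spleen, 1.78 for liver and -0.36 for ESC on the log2 scale. None of the named genes below lost its call by this.

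In cortex 94 of the 116 channel genes tested were higher and 11 lower, against a background of 35.4% of all genes higher and 20.2% lower. Their median difference was 4.83 on the log2 scale, and that of all genes tested 0.38. After division by the median gene 90 were higher and 17 lower, against 22.8% and 37.2%. All 4 HCN genes and all 4 sodium channel beta subunits were higher, as were 36 of 39 voltage-gated potassium alpha subunits, 6 of 9 sodium channel alpha subunits, 7 of 8 calcium- or sodium-activated potassium channels and 11 of 15 inward rectifiers. The 11 that were lower were highest in other tissues, among them Kcna7, Kcnq1 and Kcne1 in heart, Kcnj1 and Kcnj15 in kidney, Kcnn4, Kcnk6 and Scn4a in spleen, Kcne3 in lung and Kcnk5 in ESC.

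The largest differences in cortex were those of neuronal channels. Scn1a (chr2:66270781-66440837, GRCm38), a sodium channel of inhibitory neurons among others, had 82.4 and 81.3 TPM in cortex and at most 0.0342 TPM in the other 12 tissue libraries, a difference of 9.56 ± 0.10 (log2, SE, limma adjusted p = 6.42e-12). Cortex thus stood far above every other tissue library, while fibroblasts in DMSO had 2.12 and 2.15 TPM of Scn1a. Kcnj9, a G-protein-gated inward rectifier, stood at 142 and 153 TPM in cortex, and at 2.63 and 3.2 TPM in spleen, the next tissue. Scn2a1, a sodium channel of axons, was at 147 and 162 TPM (difference 9.02 ± 0.21), and Kcnv1, a subunit that is silent alone and modifies other channels, at 45.6 and 58.6 TPM (8.96 ± 0.11).

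Accessory subunits were abundant in cortex, with Scn2b, a sodium channel beta subunit, at 231 and 257 TPM and Kcnab2, a cytoplasmic beta subunit of voltage-gated potassium channels, at 192 and 198 TPM. Kcnj10, the inward rectifier of astrocytes and other glia, was at 214 and 208 TPM in cortex, 56.0 and 59.3 TPM in kidney and 23.9 and 31.1 TPM in spleen. Of the HCN genes, Hcn2 was at 121 and 130 TPM in cortex, above Hcn3 (17.2 and 18.7 TPM) and Hcn4 (6.76 and 7.83 TPM), with no overlap between these 3.

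The other sodium channel alpha subunits of neurons followed. Scn8a, the main sodium channel of mature axons, was at 111 and 117 TPM in cortex and at most 2.34 TPM in the other tissues (difference 8.64 ± 0.16). Scn3a, known as the form of the developing brain, was at 19.7 and 20.5 TPM, and Scn9a, the channel of pain-sensing neurons, at 3.12 and 2.76 TPM. Their order in cortex was thus Scn2a1, Scn8a, Scn1a, Scn3a and Scn9a, with no overlap between neighbours. Scn4b, a beta subunit that speeds recovery of the channel, was at 178 and 186 TPM in cortex and 35.8 and 32.2 TPM in kidney.

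Among voltage-gated potassium subunits, Kcna1 (101 TPM in both libraries) and Kcna2 (105 and 111 TPM), which share channels along axons, lay close together in cortex. Kcnh3 (112 and 120 TPM), an ether-a-go-go type channel of the forebrain, lay just above them, and its libraries did not overlap theirs. Kcnc1 (90.5 and 93.8 TPM), which allows fast firing, was lower than these 3. Kcnq3 (67.0 and 69.7 TPM), a channel that dampens repeated firing, had at most 0.168 TPM in the other tissues. Kcnma1, the large-conductance calcium-activated channel, was at 69.0 and 75.7 TPM, and Kcnip3, a relative of Kcnip2, at 86.4 and 95.6 TPM.

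Of the CLC genes, Clcn4-2 (156 and 170 TPM), Clcn6 (79.9 and 82.4 TPM) and Clcn3 (45.0 and 46.1 TPM), all exchangers inside the cell, were the highest in cortex. Each was also found in every other tissue library, at 19.6 TPM or more for Clcn4-2, 3.54 TPM or more for Clcn6 and 6.00 TPM or more for Clcn3. Clcn1, the chloride channel of skeletal muscle, was at 11.5 and 8.91 TPM in heart, 5.43 and 4.55 TPM in cortex, and 2.68 and 7.90 TPM in the ESC clones. Kcnj2, an inward rectifier that sets the resting potential of heart muscle, was at 29.5 and 27.8 TPM in heart and 17.2 and 19.5 TPM in cortex, a difference that was not called (limma adjusted p = 0.0555). Division by the median gene moves cortex minus heart by -1.33 on the log2 scale and so widens this difference.

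In heart 30 channel genes were higher and 59 lower, against 11.6% and 37.5% of all genes, with a median of -1.05 beside -0.72 for all genes. After division by the median gene the split was 37 higher and 42 lower, against 19.8% and 18.1%. Several of the higher genes belong to the cardiac action potential or to channels that adjust it. Kcnj11, the pore of the ATP-sensitive potassium channel, had 182 and 168 TPM in heart and 36.0 and 40.6 TPM in cortex (difference 7.42 ± 0.53, limma adjusted p = 9.55e-07). Its regulatory sulfonylurea receptors, which are no members, were also higher in heart, Abcc9 at 134 and 146 TPM and Abcc8 at 51.8 and 48.8 TPM.

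Kcnj3 and Kcnj5 together form the acetylcholine-gated potassium channel of the atrium. Kcnj5 was at 94.5 and 94.2 TPM in heart and at most 6.77 TPM elsewhere (difference 6.4 ± 0.18), while Kcnj3 was at 51.8 and 54.2 TPM in heart and higher, 89.2 and 101 TPM, in cortex. So the pair was found together in heart, and cortex held Kcnj3 with 1.75 and 1.59 TPM of Kcnj5. Kcng2, a silent modifier of other voltage-gated subunits, was at 87.3 and 74.5 TPM in heart (6.52 ± 0.20). Kcnk3, an acid-sensitive tandem-pore channel, was at 227 and 206 TPM. The repolarising channels Kcnq1 (67.4 and 61.9 TPM), its partner Kcne1 (24.1 and 25.5 TPM) and Kcnh2 (74.3 and 65.2 TPM) were all called higher in heart.

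The genes of the transient outward current differed in level between the 2 excitable tissues. Kcnip2, the calcium-binding partner of the Kcnd pore subunits, was the most abundant channel gene of heart at 284 and 303 TPM, with 140 and 146 TPM in cortex (difference of cortex minus heart -1.03 ± 0.31, limma adjusted p = 0.0127). Kcnd2 was at 92.0 and 92.7 TPM in cortex and 13.8 and 12.7 TPM in heart, and Kcnd3 at 41.6 and 43.4 TPM in cortex and 4.08 and 4.38 TPM in heart. Heart thus had more of the partner and less of both pore subunits, with no overlap of libraries. Over all channel genes, 82 were higher in cortex than in heart and 18 lower, against 44.6% and 14.1% of all genes, and 77 and 30, against 22.6% and 38.2%, after division by the median gene, which shifts this comparison by -1.33. Hcn4, the pacemaker channel of the sinus node, was at 9.46 and 8.21 TPM in heart and 6.76 and 7.83 TPM in cortex (-0.27 ± 0.23, limma adjusted p = 0.315). That value is from before the division, which moves it by the same -1.33, further toward heart.

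**Figure D2:**
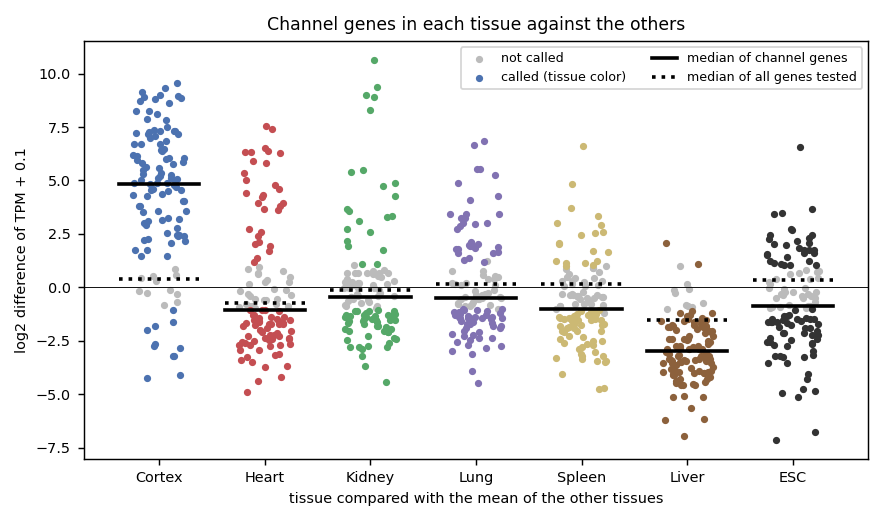
Difference of each of the 116 channel genes tested between a tissue and the mean of the other 6, in log2 of TPM + 0.1. Coloured points are called genes, solid bars the median of the channel genes (4.83 in cortex, -2.96 in liver) and dotted bars that of all genes tested.

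In kidney 22 channel genes were higher and 48 lower, against 16.6% and 18.6% of all genes, with a median of -0.46 beside -0.13. After division by the median gene 20 were higher and 51 lower (14.7% and 22.4%). The largest increases were those of transport channels of the tubule. Kcnj1, the secretory potassium channel of the thick ascending limb and collecting duct, had 328 and 296 TPM in kidney and at most 1.55 TPM in the other libraries, the largest difference of any channel gene in any tissue (10.65 ± 0.17, limma adjusted p = 4.08e-11). Kcnj16, a subunit of basolateral channels with Kcnj10 or Kcnj15, had 555 and 543 TPM (9.36 ± 0.16), with 32.3 and 28.3 TPM in cortex. Its partner Kcnj15 had 307 and 320 TPM (8.91 ± 0.38), and was also at 176 and 172 TPM in DMSO-treated fibroblasts. Clcn5, the endosomal exchanger of the proximal tubule, had 34.2 and 33.9 TPM in kidney and 22.4 and 23.6 TPM in ESC.

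The 2 genes that were 2-fold apart between the kidney libraries were Kcnk3, at 2.85 TPM in replicate 1 and 48.4 TPM in replicate 2, and Kcna1, at 0.680 and 1.90 TPM. Kcnk9, with 0.0101 and 1.99 TPM, lay just under a mean of 1 TPM. All 3 were higher in replicate 2, the library that held the adrenal genes. The part of those genes in the result was not tested. Without replicate 2 the kidney difference of Kcnk9 went from 0.74, not called, to -1.38, and that of Kcnk3 changed sign without a call on either side. That of Kcna1 was -0.14, and -0.82 without replicate 2, with no call. Without that library calls changed for 5 genes in all, among which Kcnip1 and Kcnk9 gained a lower call, and Kcne2 and Scn4a lost theirs. Kcnj1, Kcnj15 and Kcnj16 kept theirs, with Kcnk1 (94.5 and 105 TPM), a tandem-pore channel, alike in both libraries.

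**Figure D3:**
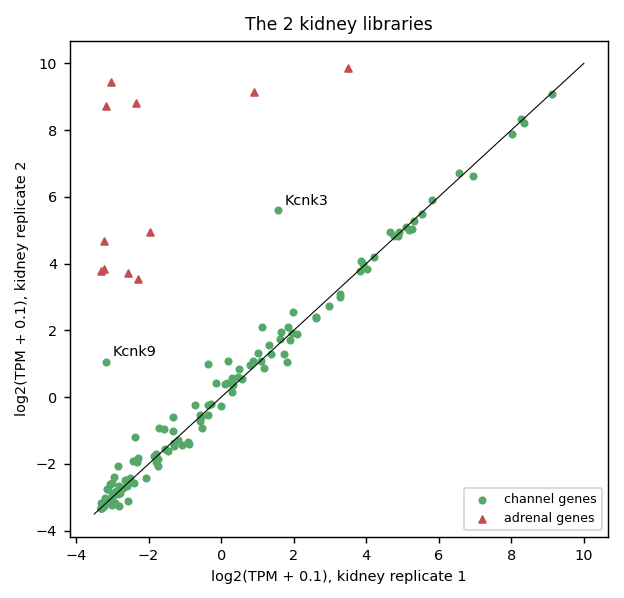
Level of each channel gene (circles) and of 11 adrenal genes (triangles) in the 2 kidney libraries, in log2(TPM + 0.1), with the line of equal levels. Kcnk3 and Kcnk9 lie above the line on the side of the adrenal genes, and the abundant renal channels lie on it.

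In lung 34 channel genes were higher and 46 lower, against 25.8% and 14.9% of all genes, with a median of -0.49 beside 0.17. After division by the median gene 31 were higher and 60 lower (18.3% and 27.2%). Scn3b (chr9:40269216-40291618), a sodium channel beta subunit, was highest here at 206 and 177 TPM, above cortex at 80.5 and 90.8 TPM (difference 6.82 ± 0.22, limma adjusted p = 7.30e-09). Scn7a, a sodium-sensing relative of the sodium channels that is not opened by voltage, was at 125 and 104 TPM in lung and at most 7.13 TPM elsewhere (6.68 ± 0.13). Both stood clear of every other tissue library. Kcne2 (12.5 and 14.4 TPM), a small accessory subunit, Kcnj13 (19.98 and 19.5 TPM), an inward rectifier of epithelia, and Kcnrg (28.2 and 30.6 TPM), a regulator and no channel itself, completed the 5 largest differences.

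Tandem-pore channels were the family most often higher in lung, with 7 of 12 higher and 1 lower, and with 7 and 4 after division by the median gene. Kcnk3 was at 49.3 and 49.1 TPM and Kcnk2, a stretch- and lipid-sensitive channel, at 24.1 and 22.1 TPM. The lung libraries held all 5 cardiac muscle markers above 1 TPM, summed to 1196 and 921 TPM against 39584 and 38941 TPM in heart. Their part in the lung levels of the heart genes Kcnk3 and Kcnj5 (6.77 and 5.72 TPM), each called higher in lung, was not tested.

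In spleen 19 channel genes were higher and 57 lower, against 26.7% and 22.1% of all genes. After division by the median gene 13 were higher and 66 lower (18.5% and 32.7%), and a pseudocount of 1 in place of 0.1 left 10 higher. Kcnn4, the calcium-activated potassium channel of blood cells, led at 89.5 and 110 TPM, with 6.68 and 6.77 TPM in lung, the next tissue (difference 6.61 ± 0.33, limma adjusted p = 7.55e-08). Kcna3, the voltage-gated channel of T lymphocytes, was at 4.38 and 6.23 TPM, below its level in cortex (13.9 and 15.6 TPM) but above all the rest. Scn4a, the sodium channel of skeletal muscle, was at 19.0 and 14.8 TPM in spleen and 16.6 and 16.3 TPM in heart, so the libraries of the 2 tissues overlapped. Kcnab2 (51.0 and 45.1 TPM) and Kcnj10 were the other leading genes.

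Liver had the fewest channel genes. There 2 were higher and 104 lower, against 7.97% and 67.4% of all genes, and 8 higher and 62 lower after division by the median gene, where the background became 25.3% and 17.7%. The 2 higher genes were Kcnn2, a small-conductance calcium-activated channel, at 11.3 and 8.47 TPM (difference 2.06 ± 0.24), and Kcnk5, an alkaline-activated tandem-pore channel, at 18.8 and 17.2 TPM (1.07 ± 0.15). The most abundant channel genes of liver were broad ones: Clcn4-2 (20.7 and 21.3 TPM), Kcnk5, Clcn2 (18.0 and 16.8 TPM) and Clcn7 (13.9 and 13.8 TPM). Clcn7, the lysosomal exchanger, was found in every tissue library, at 13.8 to 47.9 TPM.

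In ESC 30 channel genes were higher and 53 lower, against 35.7% and 25% of all genes, with a median of -0.88 beside 0.34. With a pseudocount of 1 in place of 0.1 the count of higher genes was 10. Kcnu1, the potassium channel otherwise known from sperm, led with 21.2 TPM in clone 1 and 37.1 TPM in clone 2, and at most 1.90 TPM elsewhere (difference 6.55 ± 0.24, limma adjusted p = 4.26e-09). Kcnd1 had 12.6 and 13.5 TPM, Kcnj4 10.1 and 3.91 TPM, and Kcng3 2.10 and 0.904 TPM, the last lower than in cortex. The CLC family had 6 of 9 genes higher and 0 lower, or 5 and 1 after division by the median gene, which gave 23 and 61 over all channel genes (28.8% and 30.8% of all genes). At the other end, Kcnj8, the pore of the vascular ATP-sensitive channel, was listed at 0 in both clones and at 4.34 to 68.3 TPM in the organs, and Kcnk3, Scn7a, Kcnj5 and Kcnj16 were at 0.0229 TPM or less.

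Beside the channel genes, 28 listed partner proteins (anchors, accessory subunits and regulators, none of them members) were counted. In cortex 22 were higher and 3 lower, beside 35.4% and 20.2% of all genes. In heart 9 were higher and 11 lower (11.6% and 37.5% of all genes), and 12 and 6 after division by the median gene (19.8% and 18.1%). In liver 1 was higher and 25 lower (7.97% and 67.4%), and 3 and 12 after that division (25.3% and 17.7%). Dpp10 and Dpp6, accessory subunits of the Kcnd channels, were at 104 and 108 TPM and at 114 and 118 TPM in cortex and at most 0.0283 TPM in heart. Cav3, the muscle caveolin, went the other way with 0.392 and 0.460 TPM in cortex and 135 and 126 TPM in heart.

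Inclusion of channel exons was then compared between tissues. PSI, the percent spliced in, is the share of transcripts that hold the exon, here from 0 to 1. An SE event is listed in a tissue only where both forms were seen over its 2 libraries, so an event that is not listed may be wholly included, wholly skipped or not expressed. Events with 20 reads in both libraries numbered 221 in cortex and 17 in liver. Among them 81.0% in cortex had a PSI above 0.9, against 78.0% of all events there. In the other 6 tissues the share was lower for channel events than for all events, from 62.2% against 73.5% in heart and 76.0% against 81.0% in kidney to 58.8% against 77.9% in liver. Between tissues 47 events of channel genes (45 exons in 27 genes) could be tested, and 25 in 17 genes were called by a quasi-binomial model, at an adjusted p under 0.05 and a switch score (the largest difference between tissue mean PSI) of at least 0.1. The background was 43.5% of 11655 events. The median switch score was 0.168 for channel events and 0.135 for all events. The length was a multiple of 3 in 16 of the 25 called (64.0%), against 55.7% of all called events.

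Cortex was the tissue of highest PSI for 13 of the 25 and of lowest PSI for 6, with 36 of the 47 measured there. Of all 5065 called events, 1526 were highest and 1325 lowest in cortex. The exon with the widest range was one of 42 bases in Kcnab2 (chr4:152434782-152434823, minus strand, mm10). Its PSI was 0.997 and 0.995 in cortex, from 3764 and 3759 reads, and between 0.0991 and 0.214 in the libraries of heart, kidney, lung, spleen and ESC, a switch score of 0.882 (adjusted p = 6.91e-21). The exon was thus almost always kept in cortex and mostly skipped in the others. DMSO-treated fibroblasts, outside this test, had 0.0565 and 0.127. Spleen, where the gene was second in level, had the lowest mean.

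Kcnip2 and Kcnt1 had the next widest ranges. An exon of 54 bases in Kcnip2 (chr19:45796279-45796332) had a PSI of 0.946 and 0.960 in cortex, 0.447 and 0.412 in heart, 0.701 and 0.506 in lung and 0.122 and 0.0657 in kidney, a switch score of 0.859 (adjusted p = 3.93e-14). Cortex, heart and kidney did not overlap, and lung lay between cortex and heart with a wide gap between its replicates. The exon of 96 bases next to it (chr19:45797091-45797186) followed the same order, with 0.823 and 0.798 in cortex, 0.729 and 0.744 in heart and 0.287 and 0.309 in kidney. A longer form of 908 bases that spans both exons and the intron between them was also called (0.912 and 0.890 in cortex, 0.207 and 0.191 in kidney). These events share junction reads, so they are not independent.

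Kcnt1, the sodium-activated potassium channel, was expressed in cortex (76.5 and 76.2 TPM) and kidney (38.6 and 33.1 TPM) but not with the same exons. An exon of 63 bases (chr2:25912655-25912717) had a PSI of 0.911 and 0.901 in cortex, 0.0826 and 0.0711 in kidney and 0.0869 and 0.104 in spleen (switch score 0.829, adjusted p = 1.07e-17). An exon of 42 bases upstream (chr2:25882196-25882237) was at 0.253 and 0.200 in cortex and 0.00429 and 0.0127 in kidney (0.218). Both were higher in cortex, with no overlap.

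**Figure D4:**
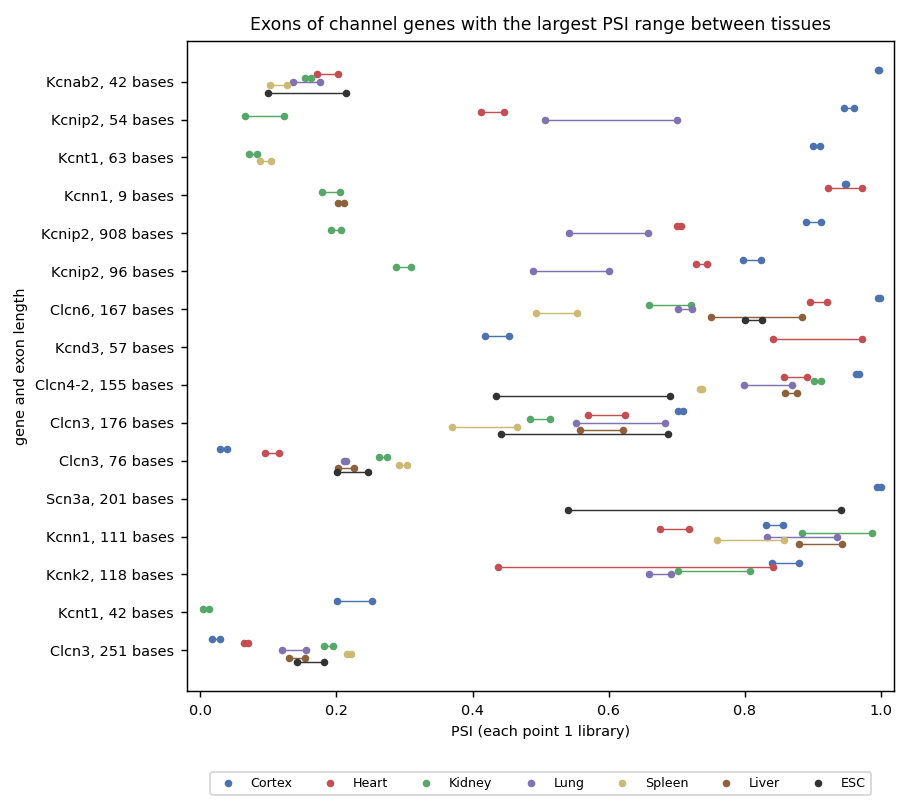
PSI of named channel exons in each tissue, with 1 point per library and a line joining the replicates. Kcnab2, Kcnt1 and both short Kcnip2 exons lie highest in cortex, and the line of Kcnd3 lies highest in heart.

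Other exons split the tissues differently. In Kcnn1, a small-conductance calcium-activated channel, an exon of 9 bases (chr8:70846764-70846772) was included in cortex (0.947 and 0.949) and heart (0.922 and 0.972), and mostly skipped in kidney (0.178 and 0.205) and liver (0.202 and 0.211), so the 2 excitable tissues went together (switch score 0.756). In Kcnd3 an exon of 57 bases (chr3:105666962-105667018) was lower in cortex, at 0.418 and 0.453, than in heart, at 0.973 and 0.842 (difference -0.472, adjusted p = 3.17e-04). Between cortex and heart 5 of 24 channel events were called, against 29.1% of all 6775 (15.8% higher and 13.3% lower in cortex): the Kcnab2 exon, the Kcnip2 forms of 54 and 908 bases and the Kcnn1 exon of 111 bases were higher in cortex, and that of Kcnd3 lower.

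The CLC family had 10 of the 25 called events, from 13 tested, beside the 43.5% of all events. The exon of 167 bases in Clcn6 (chr4:148017496-148017662) was at 0.996 and 0.999 in cortex and fell to 0.494 and 0.554 in spleen, with the other 5 tissues between. In Clcn3, an endosomal exchanger, 3 events were called: the exon of 76 bases (chr8:60914753-60914828) was at 0.0390 and 0.0292 in cortex and 0.291 and 0.304 in spleen, and its form of 251 bases, which contains it, followed the same order. The third, of 176 bases, was highest in cortex (0.709 and 0.702) and lowest in spleen (0.465 and 0.370), but its call was lost with the replicate block (adjusted p = 0.0848) and by limma on logit PSI (adjusted p = 0.298).

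Another called CLC exon lay in Clcn4-2 (155 bases), at 0.968 and 0.964 in cortex and 0.690 and 0.434 in ESC. The Scn3a exon of 201 bases rested on ESC, at 0.941 in clone 1 and 0.541 in clone 2 beside 1.00 and 0.995 in cortex, and without clone 2 its switch score was 0.056 and its call was lost.

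Events that missed the threshold are not shown to be alike in the tissues. The 104-base exon of Kcnj15 was at 0.447 and 0.384 in kidney and 0.246 and 0.231 in lung (adjusted p = 0.111).

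Inclusion was then compared between the C57BL/6J and SPRET/EiJ alleles within each tissue, from reads that carry a variant. The main fit did not pair the alleles by library. In heart and kidney the very small p-values below rest on read counts and a spread shared over events of like depth. They hardly measure how well an exon's own replicates agree. With 20 reads on each allele in both replicates, 113 tests in the 7 tissues covered 65 events in 31 channel genes, and 9 were called, in 5 exons of 5 genes. Kidney had 6 of 26 called (background 9.52%), heart 1 of 14 (8.35%), lung 1 of 8 (9.07%) and ESC 1 of 20 (3.53%). Cortex had 0 of 33 (9.46%), with 6 at an unadjusted p under 0.05 in the quasi-binomial model and 0 called by limma on logit PSI. Spleen had 0 of 7 (7.95%) and liver 0 of 5 (7.63%), both with 0 at an unadjusted p under 0.05 and 0 by limma on logit PSI. With the library as a block, which both alleles share, cortex had 2 called (12.4% of all events), in Kcns1 and Kcnd3, and ESC 4 (11.7%).

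In heart the called event was in Kcnj5, a subunit of the acetylcholine-gated channel. Its exon of 303 bases (chr9:32342222-32342524, minus strand) had a PSI of 0.532 and 0.562 on the C57BL/6J allele and 0.006 and 0 on the SPRET/EiJ allele, from 498, 475, 349 and 329 reads (difference 0.545 ± 0.025, SD of 2 libraries, adjusted p = 2.07e-60). All reads together gave 0.234 and 0.242. In this event the exon was thus read almost only from the C57BL/6J allele in both heart libraries. With another neighbour, an event with 320 and 311 reads and not measured by allele, its PSI was 0.844 and 0.840. The gene itself was read from both alleles, with a C57BL/6J share of 44.9% and 44.5% at its best-covered event in heart.

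In kidney an exon of 104 bases in Kcnj15 (chr16:95258853-95258956, plus strand) also differed. In the event with most reads its PSI was 0.274 and 0.307 on the C57BL/6J allele and 0.022 and 0.011 on the SPRET/EiJ allele (difference 0.274 ± 0.032, adjusted p = 2.98e-120). The same exon was called in 3 further events that join it to other neighbours, with differences of 0.332, 0.646 and 0.678. These 4 tests have 1 exon in common and count it once. An exon of 81 bases in Kcnj16 (chr11:110986430-110986510) went the other way, at 0.108 and 0.123 on C57BL/6J and 0.389 and 0.307 on SPRET/EiJ (-0.233 ± 0.069, adjusted p = 1.11e-24).

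In lung the Scn3b exon of 160 bases (chr9:40277072-40277231) was at 0.974 and 1.00 on C57BL/6J and 0.752 and 0.797 on SPRET/EiJ (0.212 ± 0.014, adjusted p = 5.88e-03, and 0.0601 by limma on logit PSI). In cortex the same exon was at 1.00 and 1.00 against 0.968 and 0.861, which was not called. An overlapping form of 150 bases (chr9:40277068-40277217) between the same neighbours differed by 0.078 in lung and 0.045 in cortex, and was not called in either. The exon of 155 bases in Clcn4-2 had 1.00 on the SPRET/EiJ allele in both libraries of cortex, heart and kidney, and on the C57BL/6J allele 0.945 and 0.940 in cortex, 0.838 and 0.842 in heart and 0.866 and 0.903 in kidney. The alleles did not overlap in any of these tissues, but no test was called, with a difference of -0.058 in cortex and 50 and 51 reads on the SPRET/EiJ allele in heart. Among 25 channel events measured by allele in 2 or more tissues, 0 had an allelic difference that changed with tissue by the quasi-binomial interaction (background 0.609% of 10845), and 1 had an unadjusted p under 0.05, the Kcnd3 exon of 57 bases (0.0388, adjusted p = 0.889). The other tool was not run for the interaction.

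**Figure D5:**
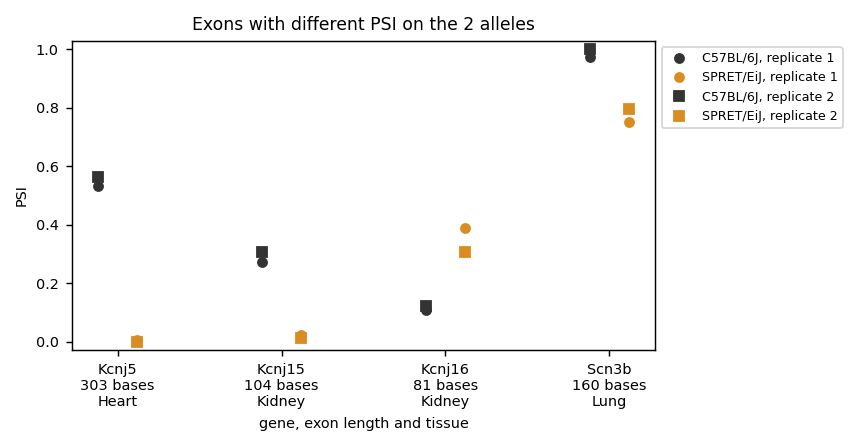
PSI on the C57BL/6J and SPRET/EiJ alleles in the 2 replicates, for 4 channel exons called between alleles, with the Kcnj15 exon shown by its event with most reads. The alleles do not overlap for any of these exons, and Kcnj5 and Kcnj15 lie near 0 on the SPRET/EiJ allele.

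The share of allelic reads that came from C57BL/6J was taken from 1 event per gene, with 20 reads or more in a library. Over 70 autosomal channel genes the median was 48.9%, with a range of gene medians from 4.63% to 87.3%. In 16 genes the share was above 50% in every measured library and in 23 below. These shares are a description with no test, and reads that hold no variant are not counted. Kcnj16 in kidney was at 88.3% and 86.3%, and Kcnu1 in ESC at 5.69% and 3.57%. Other events of Kcnu1, read in cortex, had 95.7% and 96.6%. Both the tissue and the event differ between these shares, so they do not compare the 2 tissues.

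Several genes had different shares in different tissues. Kcnk1 was at 82.6% and 83.0% in kidney, 61.2% and 61.0% in cortex and 42.3% and 42.5% in lung. Kcns1, a silent modifier subunit, was at 2.98% and 2.52% in kidney but 59.5% and 62.0% in cortex. In lung Scn7a was at 23.1% and 18.0% and Scn3b at 27.6% and 22.9%. For Kcnk1 and Kcns1 the replicates of a tissue lay far closer together than the tissues. Over all channel events, the share was 36.7% and 35.1% in lung and 57.2% and 57.6% in kidney, where all genes gave 51.1% and 50.8%, and 48.3% and 48.6%. In DMSO-treated fibroblasts it was 32.4% and 29.9%, where all genes gave 53.3% and 53.1%. In these sums over events, genes with many reads or many events weigh most, so they do not describe the channel genes as a class.

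Clcn4-2 lies on chromosome 7 in C57BL/6J and is known to lie on the X chromosome in Mus spretus. Its C57BL/6J share was 55.1% and 51.5% in cortex, 69.8% and 63.2% in heart, 80.3% and 81.1% in kidney, 85.3% and 72.7% in liver, and 30.1% and 17.8% in the ESC clones. The median over other events of the gene reached 99.4% and 99.1% in lung. The share in kidney and liver was above that in cortex in every library, and ESC lay below all organs. Kcnq1, for which the maternal allele, here C57BL/6J, is the one used in the embryo, was read from both alleles in adult tissue, at 54.0% and 53.8% in heart, 63.2% and 58.3% in kidney and 66.8% and 72.8% in lung.

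In fibroblasts 24 channel genes were expressed well enough to be compared after pladienolide B. Of these 1 was higher and 16 lower, against 4.19% and 53.8% of all 13577 genes, with a median of -1.31 beside -1.15 for all genes. Division by the median gene moved all differences by 1.45 and gave 6 higher and 5 lower, against 32.5% and 19% of all genes. The 5 genes lower on both scales were Kcnn4 (17.0 and 16.2 TPM in DMSO, 1.75 and 1.61 TPM after pladienolide B), Kcnd1, Kcnj2, Clcn3 and Clcn5. Kcnf1, a silent modifier subunit, was the only gene higher on both, rising from 0.359 and 0.265 TPM to 9.58 and 9.75 TPM (4.58 ± 0.15, and 6.03 after division by the median gene).

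Kcnj15, an abundant channel gene of fibroblasts, moved little in TPM, from 176 and 172 TPM to 149 and 147 TPM. In TPM it was lower but under 2-fold, and relative to the median gene it was called higher, so its direction depends on the scale. Leaving out either pladienolide B library took Kcnf1 out of the test, since it then passed 1 TPM in a single library.

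Exon inclusion after pladienolide B was tested for 14 channel events, and 2 were called, both lower, against 46.8% of 9929 events called and 45.8% called lower. The median change was -0.0589, beside -0.106 for all events, and 9 of the 14 (64.3%) were lower, beside 88.4%. Both called events were exons of Clcn3 with lower inclusion. That of 176 bases (chr8:60975732-60975907) went from 0.662 and 0.676 to 0.312 and 0.244 (difference -0.391, adjusted p = 0.0274), and that of 546 bases from 1.00 and 1.00 to 0.739 and 0.840 (-0.210, adjusted p = 0.0239). After the inhibitor these events had 20 to 28 reads per library, as the gene itself had fallen from 3.88 and 3.84 TPM to 0.559 and 0.569 TPM. The Kcnab2 exon (0.0565 and 0.127 to 0.0840 and 0.134) and that of Kcnk2 of 118 bases (0.801 and 0.751 to 0.80 and 0.790) were not called.

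None of the 6 listed introns of channel genes entered the test of retained introns, in which 65.9% of 1050 introns were called. Both introns of Clcn2 had 45 or more reads in each library, but a retained share of 0.052 or less, and the test left out introns under 0.1 in every library. That of Hcn2, with 35 or more reads, had a retained share of 0.961 or more and was left out for lying above 0.9 in every library. That of Clcn5 lies on the X chromosome. That of Clcn3 (chr8:60923189-60927231) had 13 and 10 reads after the inhibitor, with a retained share of 0.368 and 0.538 against 0.025 and 0.0495 in DMSO. By allele, 0 of 8 channel events were called in DMSO-treated fibroblasts (background 22.7%) and 0 of 3 after pladienolide B (11.5%) by the quasi-binomial model, and 1 of those 3, in Clcn7, with the library as a block (17.1%). Of these, 0 and 2 had an unadjusted p under 0.05, and 0 and 0 were called by limma on logit PSI. Kcnk2 was the only event measured by allele in both, and its allelic difference (-0.080 and -0.132) did not change by more than the error (p = 0.529 in the quasi-binomial fit with limma moderation).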

How the data were processed

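The libraries were made by RNA-seq of 7 tissues and from treated fibroblasts, with 2 replicates in each of 9 groups. The authors aligned reads with HISAT2 (version 2.0.1 in the submitters' processing notes) to mm10, which stands for C57BL/6J, and separately to SPRET/EiJ, and assigned each read to the genome from which it differed less. The deposited TPM values were made by the authors from gene counts by featureCounts on Ensembl 74. The authors counted junction reads of both forms of each event with rMATS, and deposited these counts without normalization. The effective lengths are a score that the authors deposited beside the counts, as rMATS wrote them. The columns of the authors' own comparisons (p-values, FDR and inclusion levels) were not used.

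Symbols were matched to members by the rule in the report, and 120 of the 122 genes to a RefSeq position on GRCm38. Differences in TPM were tested with limma 3.58.1 in R 4.3.3 on log2(TPM + 0.1), over all genes with 1 TPM in 2 libraries. PSI was computed from counts divided by effective lengths for events with 20 reads in each library, leaving out those above 0.9 or below 0.1 in every library, and per allele with 20 reads on each, where the allelic PSI lay within 0.1 of that of all reads. It was tested with a quasi-binomial model whose dispersion was moderated with limma, on a trend with depth kept from an earlier analysis of these data, with Benjamini-Hochberg adjustment over all events. Where at most 1 residual degree of freedom was left, the dispersion was pooled over events of like depth, in 10 bins, without limma. This held for the replicate block in alleles and in fibroblasts, and for fibroblasts with 1 library left out. Every adjusted p of a PSI is from this fit unless another tool is named. Events of the X chromosome were left out of the PSI tests. Genes known to be imprinted were kept. Steps were tested on simulated data, where many true changes of PSI were missed. Changes of 1 and 3 on the logit scale were called in 8.57% and 46.6% of cases between alleles in kidney. The same changes were called in 1.75% and 30.6% in ESC, and in 18.8% and 54.0% after pladienolide B. An event that was not called is therefore not shown to be unchanged. Other software was Python 3.11.15, numpy 2.4.6, pandas 2.3.3, scipy 1.17.1 and matplotlib 3.10.9.

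Junction counts set the precision of PSI, and TPM give none. The members, gene lists and tests were chosen with earlier results of these data known. Genes were named if they were among the 3 highest of a family, among the 5 largest called increases of a tissue or decreases of ESC, or on a fixed list of known channels. Exons were named by the largest called differences (up to 20 between tissues, all called between alleles and after pladienolide B). Other genes and exons were named after their values were seen, and some that these rules name are not reported here. The 2 alleles of a library share that library, which was fitted as a block in an alternative: their deviations correlated at 0.03 to 0.42. Alternatives were other pseudocounts, read minimums and filters, division by the median gene, limma on logit PSI, no depth trend, a replicate block and leaving out each library. The tests of allele by tissue and by treatment, the division by the median gene in fibroblasts and the adrenal genes were added after the data were seen.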

Additional observations from a re-analysis of the deposited data

How the results depend on the processing

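Of 199 alternative values for 23 results, 184 stayed alike, and of the 251 values for genes and 494 for exons named by rule none was reversed. The 23 results are counts of called channel genes or events and the median allelic share. A count was alike if equal, 0 included, or within 1.5 times, and the share if it moved by no more than its SD within a gene. In TPM, division by the median gene gave 70 called in liver in place of 106 and 11 after pladienolide B in place of 17. A pseudocount of 1 gave 54 in ESC in place of 83, with 10 higher in place of 30, left 10 higher in spleen in place of 19, and took Kcnk5 in liver (0.78) and Kcng3 in ESC (0.89) below 2-fold. Leaving out each fibroblast library gave 9 to 16 called after pladienolide B. For alleles, the replicate block gave 2 in cortex, 4 in ESC and 1 after pladienolide B, in place of 0, 1 and 0. A minimum of 10 reads gave 2 in heart in place of 1. Limma on logit PSI gave 0 in lung and 0 in ESC, and the fit with no depth trend 0 in ESC, in place of 1 each. The exons called after pladienolide B were 0 with a minimum of 50 reads and 1 to 3 without each library, in place of 2. Without pladienolide B replicate 2 the Clcn3 exon of 176 bases was not called, with a difference of -0.357. With 10 reads 1 retained intron, of Clcn3, was called in place of 0. For the changes not shown by fewer reads, genes or samples, the cause was not tested. The labels do not tie a replicate number to an animal. Deviations of the same numbers correlated at -0.10 to 0.07 in PSI and -0.04 to 0.17 in log2 TPM over 21 pairs of tissues, ESC included. They were above 0.1 in 4 pairs in log2 TPM and in 0 in PSI. Between organs, without the ESC clones, every correlation in log2 TPM was positive, from 0.0335 to 0.17. The numbers were not taken as pairs in the main fits. With the replicate block 21 in place of 25 events between tissues were called. Of 494 alternative values for named exons 17 lost their call. The 494 include allelic differences of a single library, which hold no call and could fail only by a change of sign. Between tissues the calls of Clcn3 (176 bases), Kcnn1 (111 bases) and Kcnk2 were among those lost by limma on logit PSI, that of Clcn3 also with the replicate block, and that of Kcnn1 was also lost without heart replicate 2 (adjusted p = 0.0547, limma-moderated). Leaving a library out of an allelic comparison left no residual degrees of freedom, so it was not tested. Low depth limits channel events in liver most, with 7042 junction reads in its shallower library.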
